A study of Mus musculus with 36 samples.

Results

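The 9 genes described here control how much retinoic acid a cell holds: Stra6, Aldh1a1, Aldh1a2, Aldh1a3, Dhrs3, Crabp1, Crabp2, Cyp26a1 and Cyp26b1. They were chosen by name as genes of retinoid uptake, synthesis, binding and turnover, and all 9 were found among 51734 gene symbols in a table of RNA-seq counts and among the 20511 genes tested. The table held mouse E14 embryonic stem cells (ESC) and neural precursor cells (NPC) made from them with retinoic acid (RA). The series lists 36 samples in 14 groups, of which 18 libraries in 6 groups of 3 are used here.

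Each group combined a stage with 1 of 3 genotypes. WT is the wild type, dCD is the line labelled MLL3/4 dCD, whose MLL3 and MLL4 histone methyltransferases lack catalytic activity, and MLL2dTAG carries a degron tag on the related enzyme MLL2. The compound dTAG-13, which directs a tagged protein to degradation, is given in the labels as a treatment of all 18 libraries, WT and ESC included. The labels' protocol gives a dose of 2 µM starting on day 1 of NPC differentiation, with collection on day 4, and does not say how long ESC were exposed. The NPC libraries carry RA as a further treatment, so stage and RA cannot be told apart. Each genotype was a line of its own, so an edit and any other difference between the lines cannot be told apart, and the labels do not say whether a line is 1 clone. Nothing in the labels says that replicates came from separate cultures, so p-values measure only the spread between these libraries.

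Retinol is taken up from its blood carrier through the membrane receptor STRA6, oxidised to retinaldehyde, and oxidised again to RA by the retinaldehyde dehydrogenases that the Aldh1a genes encode. DHRS3 reduces retinaldehyde back to retinol, CRABP1 and CRABP2 bind RA in the cytoplasm, and the CYP26 enzymes degrade it. Cyp26a1 and Dhrs3 are textbook targets of the RA receptors, so RA is known to raise the genes that clear it.

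The libraries held between 19.4 and 46.04 M counts each (M, mega), and all 18 libraries lay nearest to their own group. Summed levels of 6 pluripotency markers were 3256 to 3814 CPM (counts per mega count of the library, with library sizes scaled by the TMM method) in ESC. In NPC they were 12.8 to 14.3 CPM in WT, 17.1 to 18.05 in dCD and 132 to 137 in MLL2dTAG. In dCD NPC 1 of the 6 was called higher than in WT (edgeR, adjusted p under 0.05), Tdgf1 by 1.94 on the log2 scale, and 5 were not called. All 6 were called higher in MLL2dTAG NPC than in WT NPC. Of all genes tested, 26.7% were called higher in dCD NPC and 33.3% in MLL2dTAG NPC. Summed levels of 8 neural progenitor markers rose with differentiation, from 104 to 107 CPM in WT ESC to 194 to 202 in WT NPC. The rise in WT was not limited to neural markers. Endoderm markers went from 71.2 to 78.95 CPM to 266 to 275, and mesoderm and mesenchyme markers from 244 to 312 CPM to 541 to 558. Epithelial markers went from 275 to 317 CPM to 455 to 460, and neural crest markers from 17.7 to 19.04 CPM to 22.5 to 23.4. The edits act on proteins, so the transcripts of the edited genes do not check the labels. Kmt2b, which encodes MLL2, was at 207 ± 6.49 CPM (SD, n = 3) in MLL2dTAG ESC and 212 ± 19.4 in WT ESC, and at 197 ± 6.37 in MLL2dTAG NPC and 183 ± 8.58 in WT NPC. Kmt2c, which encodes MLL3, was higher in the MLL2dTAG libraries than in all WT libraries, at 279.98 ± 5.46 against 193 ± 23.3 CPM in ESC and 322 ± 19.6 against 175 ± 3.89 in NPC.

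Promoter windows of 300 bases, 250 before and 50 after the transcription start, were available for 7 of the 9 genes in RefSeq (GRCm38.p6), 13 windows in all. Crabp2 and Aldh1a3 had none. The windows of Cyp26a1 and Aldh1a2 are shown because these genes moved furthest apart in MLL2dTAG NPC. Capitals mark a direct repeat of RA receptor half-sites (AGGTCA or a variant spelled AGTTCA, or one spelled GGGTCA, or one spelled GGTTCA) with 5 bases between them, a DR5, searched on both strands. The first is chr19:37697558-37697857 and the second chr9:71215539-71215838, both on the plus strand, and each spans the start of the first exon.
Cyp26a1: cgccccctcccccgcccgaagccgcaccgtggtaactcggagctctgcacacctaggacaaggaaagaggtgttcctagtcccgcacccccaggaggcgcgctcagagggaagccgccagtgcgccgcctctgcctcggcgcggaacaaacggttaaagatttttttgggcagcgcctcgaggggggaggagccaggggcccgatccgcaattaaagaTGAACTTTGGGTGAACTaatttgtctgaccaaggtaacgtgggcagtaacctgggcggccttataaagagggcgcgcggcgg
Aldh1a2: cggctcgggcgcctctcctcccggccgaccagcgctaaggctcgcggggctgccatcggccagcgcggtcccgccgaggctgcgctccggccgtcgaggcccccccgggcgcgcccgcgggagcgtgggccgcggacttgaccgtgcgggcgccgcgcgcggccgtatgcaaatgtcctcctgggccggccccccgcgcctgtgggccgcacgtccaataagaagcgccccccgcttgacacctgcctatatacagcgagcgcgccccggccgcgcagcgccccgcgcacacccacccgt

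The Cyp26a1 window held a DR5 on the minus strand, 32 to 16 bases before the start, and it overlapped no other repeat searched. A DR5 was found in 32 of 32851 RefSeq promoters of this length, or 0.0974%. Repeats with 2 bases between the half-sites (DR2) were found in 0.268% of promoters and those with 1 base (DR1) in 0.222%. None of these repeats was found in the windows of Cyp26b1, Dhrs3, Stra6, Crabp1, Aldh1a1 or Aldh1a2. A match describes the letters and not binding, and the absence of a match covers these windows only.

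In WT cells, 8 of the 9 genes rose with differentiation and none fell, against 79.5% of all genes called in either direction with 39.1% called higher and 40.4% lower. The median change of the 9 genes was 5.59 on the log2 scale, beside -0.04 for all genes tested. Genes were called with edgeR's quasi-likelihood test at a Benjamini-Hochberg adjusted p under 0.05, and changes are given on the log2 scale ± SE. In these bulk samples fewer cells of a type and less RNA per cell cannot be told apart.

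**Figure D1:**
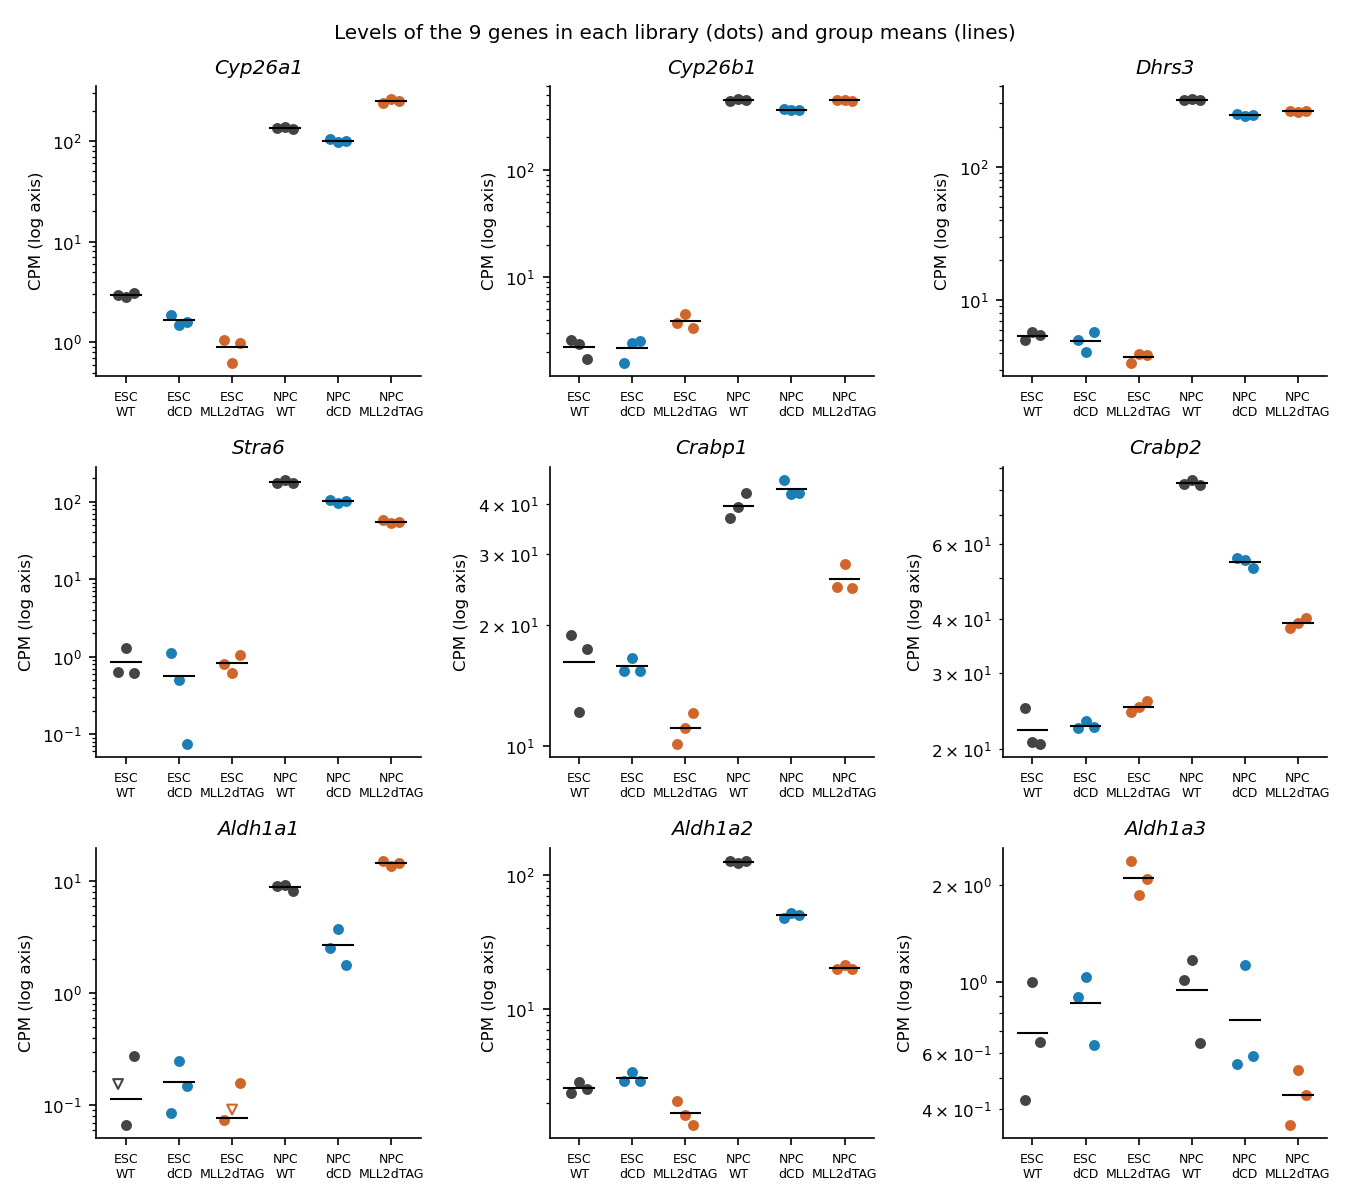
Level of each gene in every library, in CPM on a log axis, for the 6 groups. Dots are libraries, lines are means of 3 and open triangles mark libraries with 0 counts, drawn at the value of 3 counts. Aldh1a3 is the gene whose WT libraries overlap between ESC and NPC.

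Stra6, the uptake receptor, was almost silent in ESC. It stood at 0.639, 1.29 and 0.612 CPM in the 3 WT ESC libraries, at 1.11, 0.497 and 0.0746 in dCD and at 0.806, 0.621 and 1.04 in MLL2dTAG. In NPC it stood at 175, 188 and 174 CPM in WT, 103, 97.1 and 101 in dCD, and 57.0, 53.4 and 54.1 in MLL2dTAG. The ESC groups overlapped, and in NPC the 3 groups lay in the order WT, dCD, MLL2dTAG with no overlap. With differentiation Stra6 rose 203-fold in WT, by 7.66 ± 0.13 on the log2 scale. In NPC it was 1.79-fold lower in dCD than in WT (-0.84 ± 0.06, edgeR adjusted p = 1.3e-13) and 3.27-fold lower in MLL2dTAG (-1.71 ± 0.07, edgeR adjusted p = 4.0e-22). The direct comparison of the edited lines in NPC gave -0.87 ± 0.07 for MLL2dTAG against dCD (edgeR adjusted p = 1.2e-13).

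Aldh1a2, the main RA-producing dehydrogenase of the early embryo, had the widest gap between WT and MLL2dTAG among the 9 genes in NPC. ESC levels were 2.34, 2.85 and 2.52 CPM in WT, 2.90, 3.36 and 2.91 in dCD and 2.05, 1.61 and 1.36 in MLL2dTAG. In NPC the WT libraries stood at 127, 123 and 126 CPM, the dCD libraries at 47.8, 52.0 and 50.7, and the MLL2dTAG libraries at 19.9, 21.1 and 19.9. The NPC groups were far apart relative to their spread, and in ESC the MLL2dTAG libraries lay below all WT libraries. Aldh1a2 was 2.498-fold lower in dCD NPC (-1.32 ± 0.05, edgeR adjusted p = 7.9e-22) and 6.17-fold lower in MLL2dTAG NPC than in WT NPC (-2.62 ± 0.06, edgeR adjusted p = 8.8e-30). In MLL2dTAG ESC it was 1.59-fold lower (-0.66 ± 0.15, edgeR adjusted p = 0.00029), while dCD ESC gave 0.23 ± 0.14 and was not called. Between the edited lines in NPC it was 2.47-fold lower in MLL2dTAG (edgeR adjusted p = 1.3e-20).

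Aldh1a1, a dehydrogenase of later tissues such as the dorsal retina, was at the limit of detection in ESC. Counts there were 0, 2 and 8 in WT, 2, 6 and 4 in dCD and 2, 0 and 6 in MLL2dTAG, all of them even numbers. In NPC it reached 9.08, 9.27 and 8.18 CPM in WT, 2.52, 3.75 and 1.79 in dCD and 15.0, 13.6 and 14.5 in MLL2dTAG. The NPC groups did not overlap, with dCD lowest and MLL2dTAG highest. Aldh1a1 was 3.27-fold lower in dCD NPC (-1.71 ± 0.18, edgeR adjusted p = 3.3e-10) and 1.62-fold higher in MLL2dTAG NPC (0.70 ± 0.15, edgeR adjusted p = 0.00012). The edited lines differed 5.31-fold in NPC (2.41 ± 0.17, edgeR adjusted p = 2.1e-14).

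Aldh1a3, the dehydrogenase best known from the eye and nasal region, was low in every group. ESC levels were 0.426, 0.995 and 0.646 CPM in WT, 0.896, 1.04 and 0.634 in dCD and 2.38, 1.86 and 2.09 in MLL2dTAG. In NPC they were 1.01, 1.17 and 0.642 in WT, 0.552, 1.13 and 0.587 in dCD and 0.356, 0.530 and 0.444 in MLL2dTAG. MLL2dTAG was above the other groups in ESC and below them in NPC (0.530 at most against 0.552 at least), and WT and dCD overlapped at both stages. The rise in MLL2dTAG ESC was 2.93-fold (1.55 ± 0.32, edgeR adjusted p = 7.3e-05). In MLL2dTAG NPC the gene was 2.09-fold lower than in WT (-1.06 ± 0.34, edgeR adjusted p = 0.0074). Without WT NPC replicate 2 that call was lost (-0.87, edgeR adjusted p = 0.0571).

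Dhrs3, which returns retinaldehyde to retinol, had the highest level per transcript length in WT NPC. It stood at 5.00, 5.74 and 5.44 CPM in WT ESC, 5.04, 4.06 and 5.78 in dCD ESC and 3.37, 3.91 and 3.86 in MLL2dTAG ESC. In NPC the values were 316, 321 and 314 CPM in WT, 249, 240.4 and 243 in dCD and 260.4, 259.7 and 260.6 in MLL2dTAG. Both edited lines lay below WT in NPC without overlap, and in ESC the MLL2dTAG libraries lay below all others. In NPC Dhrs3 was 1.30-fold lower in dCD (-0.38 ± 0.04, edgeR adjusted p = 1.0e-10) and 1.22-fold lower in MLL2dTAG (-0.29 ± 0.04, edgeR adjusted p = 3.3e-08). In MLL2dTAG ESC it was 1.46-fold lower (-0.54 ± 0.10, edgeR adjusted p = 1.6e-05).

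Crabp1, a binding protein linked to RA breakdown, was already well expressed in ESC. It stood at 18.9, 12.1 and 17.4 CPM in WT ESC, 15.4, 16.5 and 15.4 in dCD ESC and 10.1, 11.1 and 12.1 in MLL2dTAG ESC. In NPC it stood at 36.9, 39.4 and 42.5 in WT, 45.8, 42.4 and 42.7 in dCD and 24.9, 28.4 and 24.7 in MLL2dTAG. MLL2dTAG was lowest at both stages, and the WT and dCD libraries overlapped. Crabp1 was 1.43-fold lower in MLL2dTAG ESC (-0.51 ± 0.11, edgeR adjusted p = 7.8e-05) and 1.52-fold lower in MLL2dTAG NPC (-0.60 ± 0.08, edgeR adjusted p = 6.6e-08). In dCD NPC the difference of 0.14 ± 0.08 was not called (edgeR adjusted p = 0.15). It was called in 4 of 28 alternatives. They were a fit of only the groups compared (0.15, edgeR adjusted p = 0.0198) and no filter on low counts (0.16, edgeR adjusted p = 0.0460). The others were offsets for GC content and length (0.18, edgeR adjusted p = 0.0193) and leaving out WT ESC replicate 2 (0.14, edgeR adjusted p = 0.0493).

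Crabp2, which delivers RA to its nuclear receptors, differed little between genotypes in ESC and was lower in both edited lines in NPC. ESC levels were 24.9, 20.8 and 20.5 CPM in WT, 22.3, 23.2 and 22.4 in dCD and 24.3, 24.96 and 25.8 in MLL2dTAG. In NPC it stood at 82.8, 84.4 and 82.1 in WT, 55.5, 55.1 and 52.6 in dCD and 38.2, 39.2 and 40.3 in MLL2dTAG. The NPC groups did not overlap and followed the order WT, dCD, MLL2dTAG, the order seen for Stra6 and Aldh1a2. Crabp2 was 1.53-fold lower in dCD NPC (-0.61 ± 0.05, edgeR adjusted p = 5.5e-13) and 2.12-fold lower in MLL2dTAG NPC (-1.08 ± 0.05, edgeR adjusted p = 7.3e-20). In MLL2dTAG ESC it was 1.15-fold higher (0.20 ± 0.06, edgeR adjusted p = 0.0059), a call lost without WT ESC replicate 3 (0.15, edgeR adjusted p = 0.0595).

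Cyp26a1, an RA hydroxylase, moved in opposite directions at the stages in MLL2dTAG. ESC levels were 2.93, 2.82 and 3.06 CPM in WT, 1.88, 1.49 and 1.60 in dCD and 1.06, 0.621 and 0.992 in MLL2dTAG. In NPC they were 135, 139 and 131 in WT, 105, 98.6 and 101 in dCD and 241, 261 and 249.95 in MLL2dTAG. No groups of 1 stage overlapped, and MLL2dTAG was the lowest group in ESC and the highest in NPC. Relative to WT, Cyp26a1 was 3.29-fold lower in MLL2dTAG ESC (-1.72 ± 0.16, edgeR adjusted p = 3.5e-11) and 1.86-fold higher in MLL2dTAG NPC (0.90 ± 0.04, edgeR adjusted p = 3.8e-20). In dCD it was lower at both stages, 1.77-fold in ESC (-0.83 ± 0.15, edgeR adjusted p = 2.4e-05) and 1.33-fold in NPC (-0.41 ± 0.04, edgeR adjusted p = 1.9e-10). The promoter with the DR5 printed above is that of this gene.

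Cyp26b1, the related hydroxylase with a different tissue pattern, rose further with differentiation than Cyp26a1 in WT cells. It stood at 2.61, 2.36 and 1.73 CPM in WT ESC, 1.58, 2.44 and 2.54 in dCD ESC and 3.77, 4.56 and 3.37 in MLL2dTAG ESC. In NPC it stood at 437, 454 and 448 in WT, 371, 360.2 and 358 in dCD and 443, 449.7 and 441 in MLL2dTAG. The dCD libraries were lowest in NPC, WT and MLL2dTAG overlapped there, and MLL2dTAG was highest in ESC. Cyp26b1 was 1.23-fold lower in dCD NPC (-0.30 ± 0.04, edgeR adjusted p = 1.3e-07) and 1.77-fold higher in MLL2dTAG ESC (0.83 ± 0.14, edgeR adjusted p = 2.6e-06). In MLL2dTAG NPC the difference was -0.01 ± 0.04 (edgeR adjusted p = 0.917). It was called with upper-quartile scaling (-0.10, edgeR adjusted p = 0.0434), which moved the median of all genes in this comparison by -0.09. It was also called when the fit held only the groups compared (-0.06, edgeR adjusted p = 0.0474).

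Across the comparisons with WT, dCD ESC had 1 of the 9 genes called, Cyp26a1, which was lower, where 48.3% of all genes tested were called, 25.7% higher and 22.6% lower. Stra6 at -0.71 ± 0.39 was not called there (edgeR adjusted p = 0.14), and without dCD ESC replicate 1 it was called at -1.66, which made the count 2. In MLL2dTAG ESC 7 of 9 were called, 3 higher and 4 lower, where 56.9% of all genes were called, 28.7% higher and 28.2% lower. In dCD NPC 7 of 9 were called and all 7 were lower, where 53.5% of all genes were called, 26.7% higher and 26.8% lower. In MLL2dTAG NPC 8 of 9 were called, 2 higher and 6 lower, where 61.7% of all genes were called, 33.3% higher and 28.4% lower. The median change of the 9 genes was -0.41 in dCD NPC and -0.60 in MLL2dTAG NPC, beside -0.02 and 0.03 for all genes. Both comparisons share the WT libraries.

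**Figure D2:**
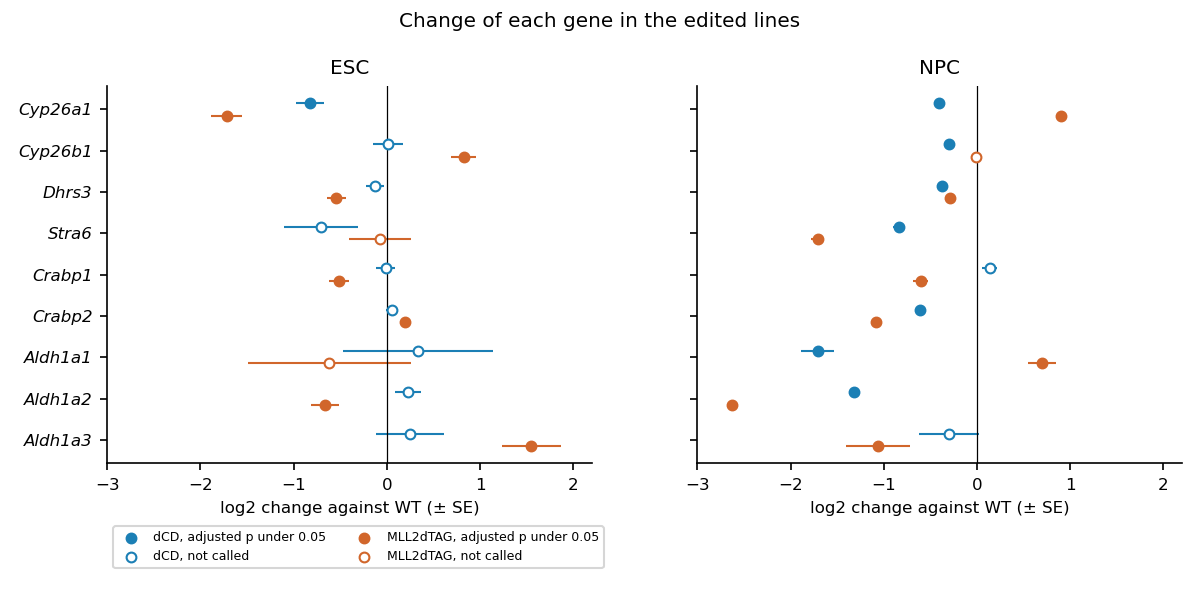
Log2 change of each gene against WT, with its standard error, in ESC (left) and NPC (right). Filled points passed an adjusted p of 0.05 and open points did not. Cyp26a1 in MLL2dTAG lies at -1.72 in ESC and 0.90 in NPC, and Aldh1a2 in NPC lies at -1.32 in dCD and -2.62 in MLL2dTAG.

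Markers of other cell types moved with the same comparisons in NPC. Summed levels of 6 endoderm markers were 266 to 275 CPM in WT, 214 to 218 in dCD (4 lower) and 674 to 695 in MLL2dTAG (6 higher). The 8 mesoderm and mesenchyme markers, of which 7 were tested, summed to 541 to 558 CPM in WT, 697 to 773 in dCD and 1021 to 1034 in MLL2dTAG, with 3 higher and 2 lower in each edited line and Mesp1 at 0 in MLL2dTAG. Neural progenitor markers summed to 402 to 440 CPM in dCD (6 of 8 higher) and 262 to 268 in MLL2dTAG (5 higher, 2 lower). The 5 neural crest markers summed to 22.5 to 23.4 CPM in WT, 30.4 to 31.2 in dCD (2 higher) and 28.6 to 30.0 in MLL2dTAG (4 higher). The 4 epithelial markers summed to 455 to 460 CPM in WT, 323 to 332 in dCD (4 lower) and 241 to 254 in MLL2dTAG (3 lower, with Krt14 higher). Of all genes, 26.7% were called higher and 26.8% lower in dCD NPC, and 33.3% and 28.4% in MLL2dTAG NPC.

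Marker sums differed between the ESC groups too. Endoderm markers summed to 71.2 to 78.95 CPM in WT ESC, 31.4 to 35.6 in dCD (3 lower) and 90.97 to 96.7 in MLL2dTAG (2 higher, 1 lower). Mesoderm and mesenchyme markers summed to 244 to 312 CPM in WT, 387 to 436 in dCD (5 higher, 1 lower, Mesp1 at 0) and 434 to 466 in MLL2dTAG (5 higher, 2 lower). Neural crest markers summed to 17.7 to 19.04 CPM in WT, 35.9 to 40.5 in dCD (2 higher) and 60.5 to 64.1 in MLL2dTAG (3 higher, 1 lower). Epithelial markers summed to 275 to 317 CPM in WT, 238 to 243 in dCD (1 higher, 1 lower) and 153 to 164 in MLL2dTAG (4 lower). Neural progenitor markers summed to 129 to 135 CPM in dCD (5 higher) and 111 to 119 in MLL2dTAG (3 higher, 2 lower), with Neurog2 at 0 in WT and MLL2dTAG. Of all genes, 25.7% were called higher and 22.6% lower in dCD ESC, and 28.7% and 28.2% in MLL2dTAG ESC. The part of these markers in the changes of the 9 genes was not tested.

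The edited lines were compared directly as well. In NPC 8 of the 9 genes differed between MLL2dTAG and dCD, 4 higher and 4 lower in MLL2dTAG, where 55.9% of all genes were called, 31.6% higher and 24.3% lower. Cyp26a1 was 2.47-fold higher in MLL2dTAG (1.31 ± 0.04, edgeR adjusted p = 1.3e-24) and Crabp1 was 1.67-fold lower (-0.74 ± 0.08, edgeR adjusted p = 9.5e-10). Dhrs3 differed by 0.09 ± 0.04 (edgeR adjusted p = 0.0358), and 11 of 28 alternatives ended this call, with a value of 0.01 under upper-quartile scaling. Aldh1a3 at -0.76 ± 0.35 was not called (edgeR adjusted p = 0.0672). In ESC 7 of 9 were called, 3 higher and 4 lower, where 47.2% of all genes were called, 23.4% higher and 23.7% lower. Cyp26a1 was 1.86-fold lower in MLL2dTAG ESC than in dCD ESC (-0.89 ± 0.19, edgeR adjusted p = 0.00019).

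Differentiation raised the same 8 genes in each genotype. In dCD 8 of 9 were called, all 8 higher, where 77.6% of all genes were called, 38.7% higher and 39.0% lower. In MLL2dTAG all 9 were called, 8 higher and 1 lower, where 78.2% of all genes were called, 39.9% higher and 38.3% lower. Aldh1a2 rose 48.1-fold in WT, 16.4-fold in dCD and 12.4-fold in MLL2dTAG. Cyp26a1 rose 45.8-fold in WT, 61.2-fold in dCD and 281-fold in MLL2dTAG. Stra6 rose 203-fold, 185-fold and 65.1-fold, and Crabp2 rose 3.81-fold, 2.40-fold and 1.57-fold, in the same order of genotypes. Without dCD ESC replicate 1 the rise of Stra6 in dCD was 360.3-fold. Aldh1a1 rose 67.4-fold, 16.4-fold and 168-fold, with 198-fold in WT without WT ESC replicate 3 and 387-fold in MLL2dTAG without MLL2dTAG ESC replicate 3. These Aldh1a1 folds rest on 10, 12 and 8 counts over the ESC groups. The gene was tested only because of its NPC counts, so its rise adds nothing to the count of 8. Cyp26b1 rose 204-fold, 164-fold and 114-fold, Dhrs3 58.2-fold, 48.9-fold and 69.5-fold, and Crabp1 2.49-fold, 2.77-fold and 2.34-fold. Aldh1a3 did not pass the test in WT (0.40 ± 0.34) or dCD (-0.16 ± 0.35) and fell in MLL2dTAG by 2.22 ± 0.32 on the log2 scale.

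**Figure D3:**
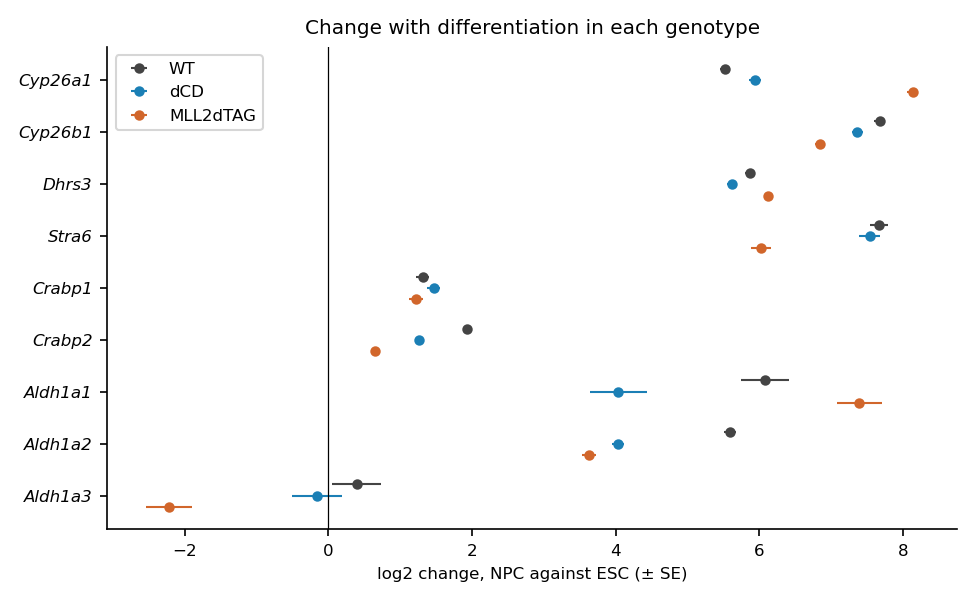
Log2 change of each gene from ESC to NPC in each genotype, with its standard error. Aldh1a2 spans 5.59 in WT to 3.63 in MLL2dTAG, and Cyp26a1 spans 5.52 in WT to 8.13 in MLL2dTAG.

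The difference between the responses was tested as an interaction, the change against WT in NPC minus that in ESC. For MLL2dTAG 7 of 9 genes were called, 2 higher and 5 lower, where 49.0% of all genes were called, 26.4% higher and 22.6% lower. Cyp26a1 gave 2.61 ± 0.17 (edgeR adjusted p = 1.9e-15), Aldh1a2 -1.96 ± 0.17 (edgeR adjusted p = 3.6e-12) and Crabp2 -1.28 ± 0.08 (edgeR adjusted p = 7.1e-16). For dCD 3 of 9 were called, 1 higher and 2 lower, where 42.9% of all genes were called, 20.0% higher and 22.9% lower. They were Aldh1a2 at -1.55 ± 0.15 (edgeR adjusted p = 1.1e-10), Crabp2 at -0.66 ± 0.08 (edgeR adjusted p = 1.8e-08) and Cyp26a1 at 0.42 ± 0.16 (edgeR adjusted p = 0.0326). The Cyp26a1 call was lost with halved counts (edgeR adjusted p = 0.117) and without WT ESC replicate 3, dCD ESC replicate 2, dCD ESC replicate 3, WT NPC replicate 3 or dCD NPC replicate 1, where its value was 0.35 to 0.40. The count of 3 became 5 with a filter of 1 CPM in 3 libraries, with DESeq2, without WT ESC replicate 2 and without dCD ESC replicate 1.

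Levels per kilobase of merged exon length put the binding proteins first in WT ESC, with Crabp1 at 20.1 and Crabp2 at 16.7 CPM per kb, which overlapped between libraries. Dhrs3 at 1.84, Cyp26a1 at 1.48, Aldh1a2 at 1.14 and Cyp26b1 at 0.417 followed. Aldh1a3 at 0.149 and Stra6 at 0.146 overlapped, and Aldh1a1 at 0.0228 was last. In WT NPC the order was Dhrs3 at 108 CPM per kb, Cyp26b1 at 83.4, Cyp26a1 at 67.9, Crabp2 at 62.9, Aldh1a2 at 55.4, Crabp1 at 49.4, Stra6 at 30.7, Aldh1a1 at 1.79 and Aldh1a3 at 0.204, with no overlap between neighbours. In MLL2dTAG NPC Cyp26a1 came first at 126 CPM per kb, above Dhrs3 at 88.9, and Stra6 at 9.41 and Aldh1a2 at 8.96 overlapped. In dCD NPC Dhrs3 at 83.4 and Cyp26b1 at 67.8 CPM per kb came first, and Crabp1 at 54.4 stood above Cyp26a1 at 51.2.

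Ratios of degradation to synthesis transcripts are given as a description, since Cyp26a1 and Aldh1a2 were singled out after their changes were seen. Per length, the Cyp26a1 to Aldh1a2 ratio was 1.21, 1.29 and 1.18 in the WT NPC libraries, 2.51, 2.17 and 2.28 in dCD and 13.8, 14.1 and 14.4 in MLL2dTAG. The 3 groups did not overlap. Over both Cyp26 genes and all 3 Aldh1a genes, the ratio in NPC was 2.64 ± 0.0954 (SD, n = 3) in WT, 5.22 ± 0.373 in dCD and 17.5 ± 0.312 in MLL2dTAG. In ESC the Cyp26a1 to Aldh1a2 ratio was 1.31 ± 0.162 in WT, 0.625 ± 0.116 in dCD and 0.622 ± 0.199 in MLL2dTAG, and the ratio over both families was 1.47 ± 0.249, 0.801 ± 0.101 and 0.983 ± 0.104.

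Shares within each family were set against WT as well. Two-sided exact permutation tests of shares and of the ratios above, for each edited line and stage, made 28 tests. They could not call any difference, since 3 libraries against 3 cannot give a p below 0.1, however far apart the groups lie. The lowest p of these permutation tests after Benjamini-Hochberg adjustment was 0.14, and no conclusion is drawn from them. The Cyp26a1 to Aldh1a2 ratio, singled out after its changes were seen, was among those tested. Aldh1a2 made up 96.5% ± 0.338 (SD, n = 3) of the summed Aldh1a level per length in WT NPC, 96.9% ± 1.04 in dCD NPC and 74.9% ± 1.42 in MLL2dTAG NPC, where Aldh1a1 made up 24.3% ± 1.55. These shares depend on the merged exon lengths, 4.937 kb for Aldh1a1 and 2.264 kb for Aldh1a2. Without division by length, Aldh1a1 stood at 14.4 CPM and Aldh1a2 at 20.3 in MLL2dTAG NPC. In ESC Aldh1a3 made up 37.9% ± 3.31 in MLL2dTAG, beside 11.1% ± 3.16 in WT. Cyp26a1 made up 44.9% ± 0.680 of the summed Cyp26a1 and Cyp26b1 level in WT NPC and 60.3% ± 0.779 in MLL2dTAG NPC. Crabp1 made up 44.0% ± 1.89 of the summed Crabp level in WT NPC, 56.9% ± 0.873 in dCD NPC and 52.2% ± 2.08 in MLL2dTAG NPC.

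**Figure D4:**
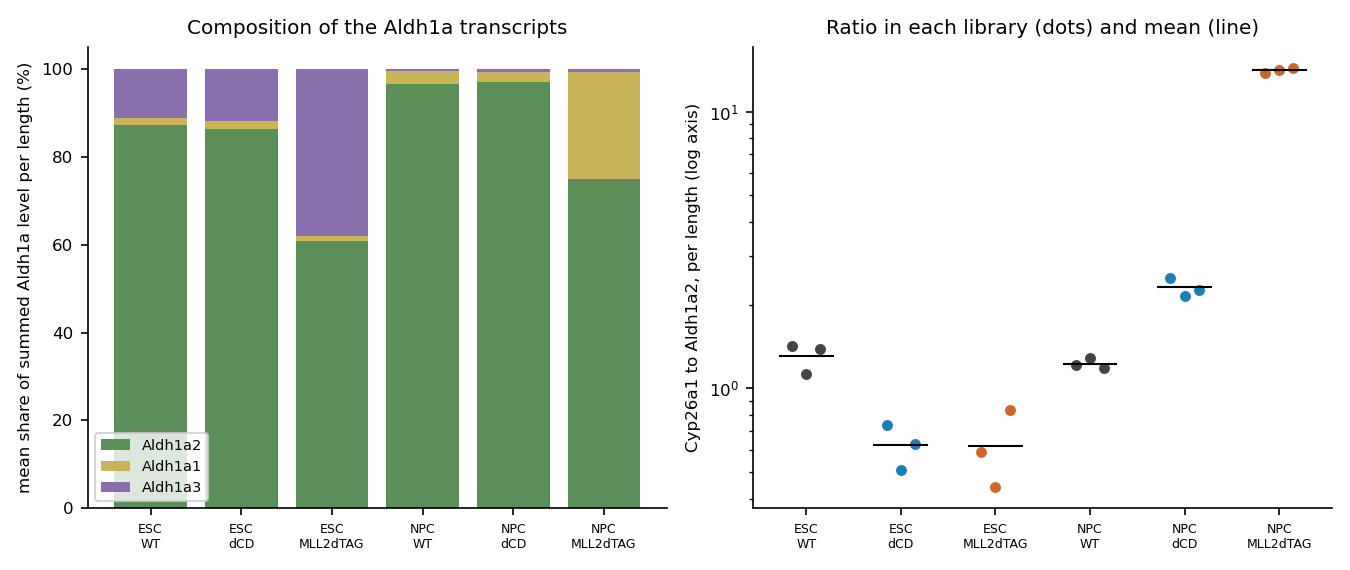
Left, mean share of each Aldh1a gene in the summed Aldh1a level per merged exon length, in percent, for the 6 groups. Right, the ratio of Cyp26a1 to Aldh1a2 per length in each library (dots) with means (lines) on a log axis, with the MLL2dTAG NPC libraries at 13.8 to 14.4 and the WT NPC libraries at 1.18 to 1.29.

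Other genes of the pathway were described from lists chosen, like the 9 genes, with earlier results of these data known. Of 24 further genes of retinoid transport and metabolism, 22 were tested. In dCD NPC 4 were higher, 8 lower and 10 not called (median -0.11), where 26.7% of all genes were higher and 26.8% lower. The largest changes there were Rdh12 (-1.26), a retinal reductase, Scarb1 (-0.89), a lipoprotein receptor, and Cyp1b1 (0.88), a cytochrome P450. In MLL2dTAG NPC 9 were higher, 9 lower and 4 not called (median 0.14), where 33.3% of all genes were higher and 28.4% lower. The largest changes there were Rdh12 (-3.29), Ttr (2.54) and Rbp4 (-1.85), the last pair being the blood carriers of retinol. In ESC the counts were 6 higher and 4 lower in dCD, where 25.7% of all genes were higher and 22.6% lower. In MLL2dTAG ESC they were 6 higher and 9 lower, where 28.7% of all genes were higher and 28.2% lower. With differentiation of WT cells 15 rose and 5 fell, where 39.1% of all genes rose and 40.4% fell, and Rbp4 was among those that rose (3.90). Adh1, an alcohol dehydrogenase, went from 0 counts in WT ESC to 1077 in WT NPC, at least 268-fold higher against 3 counts over the group.

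Receptors and RA-responsive genes were counted beside the shares of all genes called, 26.7% higher and 26.8% lower in dCD NPC and 33.3% higher and 28.4% lower in MLL2dTAG NPC. Of the 6 RA and retinoid X receptors, 3 were higher and 2 lower in dCD NPC, and 1 was higher and 3 lower in MLL2dTAG NPC. Rarb, itself a target of RA, was at 226 ± 4.89 CPM (SD, n = 3) in WT NPC, 253 ± 2.87 in dCD NPC and 249 ± 3.68 in MLL2dTAG NPC. Rarg was higher in dCD NPC (0.66) and lower in MLL2dTAG NPC (-0.42). Of 12 genes known to respond to RA, 4 were higher and 6 lower in dCD NPC (median -0.08), and 7 were higher and 5 lower in MLL2dTAG NPC (median 0.16). Examples were Foxa1 (1.55), Tgm2 (-1.04) and Hoxb1 (-0.98) in dCD NPC and Cdx1 (1.99) and Hoxd4 (-1.12) in MLL2dTAG NPC. With differentiation of WT cells 11 of the 12 rose and 1 fell (median 5.36), where 39.1% of all genes rose and 40.4% fell. In ESC, dCD had 7 of the 12 called higher and 2 lower (median 0.81). MLL2dTAG ESC had 7 higher and 1 lower (median 0.84). Of the 12, 6 averaged below 1 CPM in WT ESC. The receptors in ESC were 3 higher and 1 lower in dCD, and 4 higher and 0 lower in MLL2dTAG. Of all genes, 25.7% were called higher and 22.6% lower in dCD ESC, and 28.7% and 28.2% in MLL2dTAG ESC. In the MLL2dTAG interaction all 6 receptors were called lower, where 26.4% of all genes were called higher and 22.6% lower. A lower interaction means that the change against WT in NPC lay below that in ESC, and not that the level was low. In the dCD interaction 2 receptors were higher and 4 lower, where 20.0% of all genes were higher and 22.9% lower. Of the 12 RA-responsive genes, 2 were higher and 6 lower in the MLL2dTAG interaction, and 1 was higher and 7 lower in that of dCD.

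**Figure D5:**
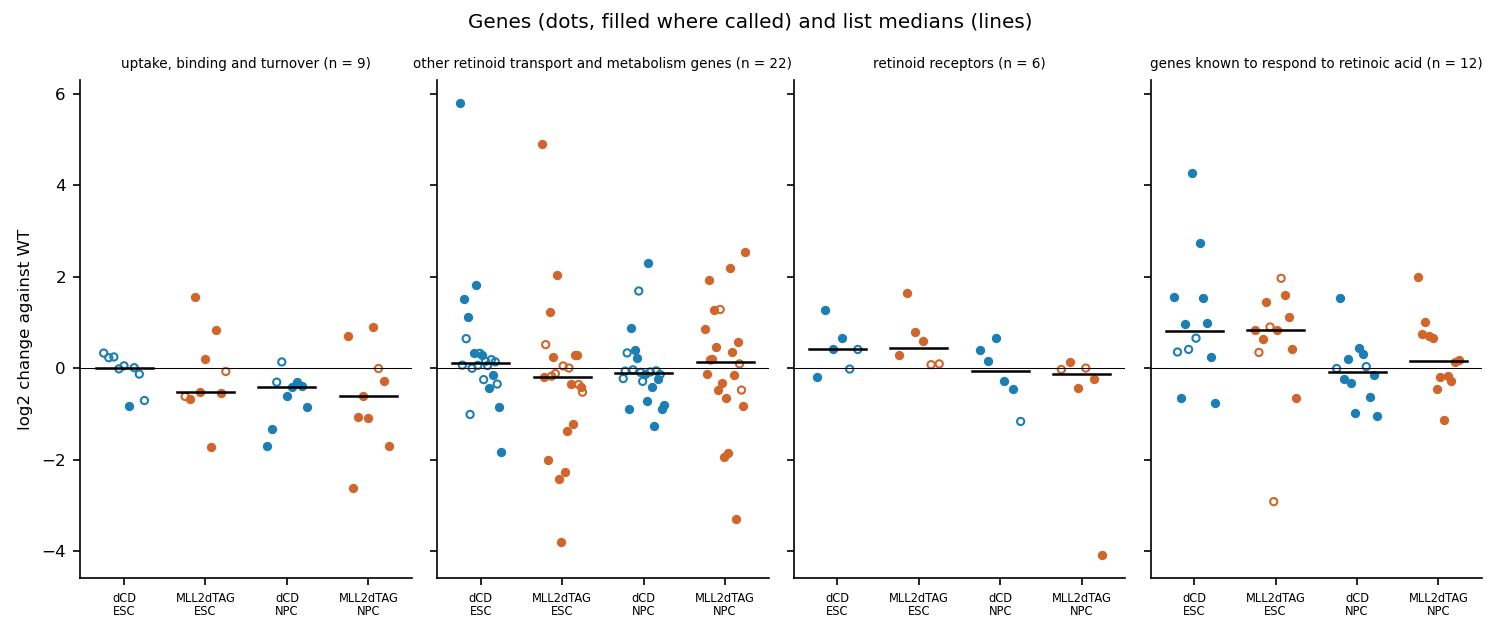
Log2 change against WT of each tested gene of the 4 lists, filled where called, with list medians as lines; changes of genes with few or no counts in a group are fitted values. The median of the 9 genes lies at -0.41 in dCD NPC and -0.60 in MLL2dTAG NPC, and that of the 12 RA-responsive genes at -0.08 and 0.16.

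The genes with the most similar profiles were found by Pearson correlation of log2 CPM over the 18 libraries, among the 11798 genes that averaged 5 CPM or more. The closest were Fam134a for Cyp26a1 (0.997), Kalrn for Cyp26b1 (0.998), Ltbp1 for Dhrs3 (0.999), Thra for Stra6 (0.995), Tcp11l1 for Crabp1 (0.978), Osr2 for Crabp2 (0.994), Amigo2 for Aldh1a1 (0.990), Bmpr1b for Aldh1a2 (0.995) and Rtn2 for Aldh1a3 (0.875). Among the 9 genes, Aldh1a2 and Crabp2 correlated at 0.973 and Cyp26a1 and Dhrs3 at 0.988. Aldh1a3 correlated negatively with the other 8, from -0.19 with Crabp2 to -0.54 with Cyp26a1. These values are descriptions, since the libraries share stages and genotypes.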

How the data were processed

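The authors' deposited table holds whole-number read counts, 1 row per gene symbol, and HTSeq is named in the submitters' processing notes. The libraries were made with a stranded mRNA kit, per the labels' protocols. For these libraries the aligner and build are not given in the sources used here. Columns were assigned to samples by name, and 18 columns whose names did not identify a sample were not used. Even values made up 60.8% to 66.5% of the counts from 1 to 10, so halved counts were 1 alternative. Whether both reads of some pairs were counted was not tested; low counts may then stand for fewer fragments.

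Counts of 18 libraries were fitted with edgeR 4.0.16 in R 4.3.3 (TMM scaling, a filter on low counts by group, 1 mean per group, 12 residual degrees of freedom, quasi-likelihood F test) on 20511 genes, with Benjamini-Hochberg adjustment over all of them. All 9 genes passed the filter, Aldh1a1 through its NPC libraries only. Totals of 19.4 to 46.04 M (mega counts) make 3 counts worth 0.0652 to 0.154 CPM, so differences of Aldh1a1, Aldh1a3 and Stra6 in ESC are the least precise. Lengths are merged exons of GENCODE M21 (GRCm38), matched by symbol. The fit was tested on simulated data, where the changes it missed were nearly all in genes with low counts. The simulated counts used the dispersion of this same fit and no difference between stages. The simulation therefore checks how the fit runs and gives no support to the calls reported here. In a first run the fit narrowly missed a criterion set over all changed genes. That criterion was then replaced by recovery of well-counted genes, bias and false calls. The simulation kept also changed genes with lower counts, and recovery over all changed genes lay further below the first criterion.

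The 9 genes and all lists were chosen with earlier results of these data known. Named genes are all 9, up to 3 called list members with the largest change at a mean of at least 1 CPM, and the 2 most similar profiles, of which the first is printed; some list members are not reported here. Alternatives were other scalings, filters, DESeq2 1.42.0, offsets for GC content and length, a replicate block, only the groups compared, and leaving out each library.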

Additional observations from a re-analysis of the deposited data

Results flagged for a closer look

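The effect of an edited line differed between ESC and NPC by the interaction test (edgeR, adjusted p under 0.05) for 10 combinations of gene and line. They were 7 of 9 genes for MLL2dTAG, where 49.0% of all genes tested were called. For dCD they were 3 of 9, where 42.9% of all genes were called. For MLL2dTAG the difference of log2 changes was 2.61 for Cyp26a1, -0.83 for Cyp26b1, 0.26 for Dhrs3, -1.64 for Stra6, -1.28 for Crabp2, -1.96 for Aldh1a2 and -2.62 for Aldh1a3. For dCD it was 0.42 for Cyp26a1, -0.66 for Crabp2 and -1.55 for Aldh1a2. Cyp26a1, Crabp2 and Aldh1a3 in MLL2dTAG changed direction between the stages, with a call at each stage. The Crabp2 call in ESC was lost without WT ESC replicate 3 (edgeR adjusted p = 0.0595). The Aldh1a3 call in NPC was lost without WT NPC replicate 2 (edgeR adjusted p = 0.0571). The Dhrs3 value was 0.16 with no filter on low counts and 0.17 with library totals only, and 19 of 28 alternatives ended its call.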

How the results depend on the processing

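Of 2769 values of the 9 genes recomputed under the alternatives, 2655 kept their direction and their side of the threshold, 57 lost and 31 gained a call, and 26 changed sign, all 26 of them in comparisons that were not called. Crabp1 in dCD ESC (-0.01) was 0.00255 with RLE factors, 0.00770 with no filter and 0.0215 with GC and length offsets, and Cyp26b1 there (0.01) was -0.0233 with only the groups compared. With 1 library left out, values in dCD against WT in ESC ranged from -0.19 to 0.10 for Crabp1, -0.15 to 0.19 for Cyp26b1 and -0.0895 to 1.89 for Aldh1a1. In MLL2dTAG they ranged from -0.32 to 0.43 for Stra6 and -1.81 to 0.94 for Aldh1a1 in ESC, and from -0.0215 to 0.00673 for Cyp26b1 in NPC. Aldh1a3 from ESC to NPC in dCD ranged from -0.57 to 0.0254. The interactions ranged from -0.70 to 0.83 for Stra6 in dCD, and from -0.20 to 0.0881 for Crabp1 and -0.24 to 2.51 for Aldh1a1 in MLL2dTAG. The number of the 9 genes called ranged from 1 to 2 in dCD ESC and from 2 to 5 in the dCD interaction, which also gave 5 with a filter of 1 CPM and with DESeq2. The cause of these changes was not tested.

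Crabp2 between the edited lines in ESC (0.15) lost its call in 18 of 28 alternatives and was 0.09 with upper-quartile scaling, and Dhrs3 between them there was -0.28 and not called without dCD ESC replicate 3. Replicate numbers did not pair the samples: deviations of 45 same-numbered pairs correlated at -0.08 to 0.05, and 4 of 18 libraries correlated best with their own number. With a replicate block 9761 genes were called in dCD ESC and 12506 in MLL2dTAG NPC. The block left Dhrs3 in the MLL2dTAG interaction at 0.26 (edgeR adjusted p = 0.0528) and Crabp2 between the edited lines in ESC at 0.15 (edgeR adjusted p = 0.0587), both not called, and changed no other call of the 9 genes. Upper-quartile scaling moved the median of all genes by -0.12 from ESC to NPC in MLL2dTAG.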
